A study of Mus musculus with 32 samples.

Results

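Adenoma was compared with normal mammary gland across all genes, using the 8 laser-captured regions that the labels call adenoma and the 3 that they call normal, which are 11 of the 32 libraries of the series. Every region came from mice, all of them female, of the genotype MMTV-PyMT; R26-CBW; K8-CreERT2. They had received 5 mg of tamoxifen at 5 weeks of age. Normal gland here is thus gland of animals that carry the same alleles, the oncogene among them, and had the same treatment. MMTV-PyMT expresses the polyoma middle T oncoprotein in mammary epithelium from a viral promoter. K8-CreERT2 is a tamoxifen-dependent recombinase driven by keratin 8, and R26-CBW is a multicolour reporter, so a patch of 1 colour marks descendants of a keratin 8 cell. Adenoma regions 24, 25 and 51 lay in tumour core, regions 36, 47 and 48 at the tumour border, and regions 34 and 50 had no tumour around them. Normal region 18 was cut from a tumour core, while normal libraries 28 and 30 were collected from different places and have the colour entry Pool. Normal 18 and every adenoma region have a single colour (GFP, RFP or YFP), so pooling of colours goes partly with stage. The series gives n = 3, read here as animals, and the labels tie no region to one. Read so, some of the 8 adenoma regions share an animal. P-values over regions do not allow for this and can be too small.

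Adenoma is an early, still gland-like tumour stage in this model, between hyperplasia and carcinoma. The normal duct has an inner luminal layer, which carries keratins 8 and 18 and can make milk proteins, and an outer basal layer, which carries keratins 5 and 14 and contractile proteins. Around it lie fibroblasts, fat, vessels and resident leucocytes, and an adenoma is an expansion of the luminal layer within this surrounding.

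The values are raw counts per gene, given here as CPM, that is, scaled to a common library size with TMM factors. Total counts ran from 2688611 to 19585351 in adenoma and from 3002492 to 9646523 in normal gland. The number of genes with at least 1 count was 13728 ± 1743 in adenoma (SD, n = 8) and 16823 ± 679 in normal gland (SD, n = 3), a difference of -3095 (exact permutation test over 165 splits, two-sided, p = 0.0182, Benjamini-Hochberg adjusted p = 0.0455 over 5 measures, smallest possible p 0.00606). With all libraries thinned to 2688611 counts the means were 12739 and 16323 (exact permutation p = 0.0364, adjusted p = 0.0606). Gene detection thus moved with stage, and the same limit on p holds here. Adenoma 51 had the fewest genes, 10769. No pair of libraries within a group differed by as little as counting noise.

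Luminal markers were present in all 11 regions. Krt8, keratin 8 of the luminal layer, stood at 289.6, 231 and 433 CPM in normal libraries 18, 28 and 30 (the order used throughout), and at 388, 823 and 1275 CPM (lowest, median and highest, as for every gene below) in adenoma. Epcam, an epithelial adhesion molecule, was at 293, 298 and 307 CPM in normal gland and 342, 427 and 811 CPM in adenoma. Markers of the cells around the ducts differed among themselves. Col1a1, a chain of type I collagen, stood at 816, 163 and 477 CPM in normal gland and 1.77, 19.2 and 165 CPM in adenoma, where the highest library was adenoma 36. The fat hormone Adipoq was at 47.4, 0 and 9.85 CPM in normal gland and at 0 in 6 of 8 adenoma regions. Dcn, decorin of fibroblasts, ran from 33.7 to 76.2 CPM in normal gland and was at 0, 2.21 and 401 CPM in adenoma. Its fitted log2 change was 0.06 with overlap, although its adenoma median lay below every normal library. The leucocyte and blood markers Ptprc and Hbb-bs overlapped as well. For Ptprc, too, the adenoma median (13.2 CPM) lay below every normal library. The 3 normal libraries thus held RNA of stroma beside the luminal layer, and normal 18 and 30 held Adipoq of fat as well. In such bulk samples fewer cells of a type cannot be told apart from less RNA per cell.

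A single gene of 19907 passed the test, Cfd, which fell (edgeR quasi-likelihood test over all 32 libraries, Benjamini-Hochberg adjusted p at or under 0.05). That is 0.00502% of the genes tested on the lower side and 0 (0%) on the higher side. At an unadjusted p under 0.05 the same test gave 764 higher genes (3.84%) and 1835 lower genes (9.22%), and no overlap between the groups was seen for 204 higher genes (1.02%) and 415 lower genes (2.08%). DESeq2's Wald test called 141 genes on the higher side and 223 on the other, and limma's voom fit with weighted samples 6 and 497. Over all genes the median log2 change was 0.07, with 51.6% of genes above 0 and 47.7% below. With DESeq2 size factors that median was -0.30, and 14.66% of the genes at an unadjusted p under 0.05 were higher, against 29.4% with TMM and 14.29% with library totals. With the number of detected genes in the fit that share was 57.03% (1123 higher, 846 lower), and 4 genes were called lower, Cfd not among them. None of these p-values allows for regions that share an animal, so they can be too small. Among the 1835 lower genes, 905 took over 90% of their summed normal CPM from 1 library and 580 had no count in any adenoma region, while 364 had at least 10 counts in all 3 normal libraries.

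Cfd encodes adipsin, complement factor D, a serine protease that fat cells secrete and that cleaves factor B in the alternative complement pathway. It lies at chr10:79890853-79892655 (GRCm38.p6). Normal gland gave 429, 36.6 and 202 CPM, a mean of 223 ± 197 (SD, n = 3), and none of the 8 adenoma regions gave a count. Every normal library lay above every adenoma region. Against the floor of 3 counts over the adenoma group, which covers counting error only, Cfd was at least 6175-fold lower in adenoma (adjusted p = 0.000955, edgeR quasi-likelihood test). The call was lost with DESeq2's Wald test (adjusted p = 0.142), when gene detection entered as a covariate (adjusted p = 0.241) and without normal 18 (adjusted p = 0.0803, edgeR). It held in the other 18 alternatives that tested the gene, and the adjusted p over all 21 ran from 1.34e-12 to 0.241. In the other stages Cfd averaged 1.88 CPM in hyperplasia, 0.1004 in carcinoma and 0.0291 in metastasis.

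Most other genes of fat were fitted on the same side as Cfd, while their summed level overlapped between the groups. Summed over the 11 tested genes of the adipocyte list, normal libraries gave 112, 488 and 926 CPM in ascending order and adenoma regions 1.71 to 92.9 with a median of 37.9 CPM. That sum includes Cfd, and without it (chosen after seeing the data) normal 28 held 75.3 CPM, under adenoma 25, 50 and 36 at 92.9, 82.9 and 78.6 CPM. Of the 11, 10 had a fitted change below 0, 7 of them at an unadjusted p under 0.05, against 9.22% of all genes, and the median log2 change was -4.62. Without Cfd they were 9 of 10 and 6, with a median of -3.86. Car3, a carbonic anhydrase abundant in fat and muscle, stood at 181, 28.5 and 43.7 CPM in normal gland and 0, 0 and 7.03 CPM in adenoma, with 5 of 8 adenoma regions at 0. Fabp4, the fatty acid binding protein of fat cells and capillaries, was at 37.9, 54.99 and 206 CPM in ascending order in normal gland, and 3 of 8 adenoma regions lacked it while the highest held 60.8 CPM. The part of fat cells cut along with the normal glands in the Cfd result was not tested.

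Beside Cfd, the genes of smallest p are given as values, since their adjusted p was 0.0880 each (edgeR). They were picked among genes with a symbol and above a level filter. That filter was a mean of 20 CPM and 10 counts in 75% of libraries of the higher group. Of all 19907 genes, 443 had an adjusted p at or under 0.1 in that test, 33 higher and 410 lower. Ube2c, at chr2:164769929-164772902, encodes the ubiquitin-conjugating enzyme that works with the anaphase-promoting complex to end mitosis. It stood at 40.6, 13.2 and 12.3 CPM in normal gland and at 120.3, 220.1 and 457 CPM in adenoma, a log2 change of 3.46 (SE 0.71). All 8 adenoma regions, with adenoma 36 and 51 highest, lay above the 3 normal libraries. In 4 of 22 alternatives Ube2c did pass, with adjusted p-values of 0.0491 with DESeq2 size factors, 0.0390 on thinned counts, 0.0485 without the libraries of fewest detected genes (all edgeR) and 4.05e-07 in DESeq2's Wald test. Over all 22 its adjusted p ran up to 0.145.

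Next came secretory and transport genes of the epithelium. Aqp5, a water channel of secretory epithelia (chr15:99591028-99594829), was at 186, 155 and 184 CPM in normal gland and 346, 874 and 1316 CPM in adenoma, a log2 change of 2.34 (SE 0.56). Kcnn4, a calcium-activated potassium channel (chr7:24369826-24385212), was at 218, 178 and 394 against 650.3, 942 and 1371 CPM, a log2 change of 1.94 (SE 0.48). For both channels the groups did not overlap, as for 1.02% of all genes on the higher side, and adenoma 25 was highest. Ak3, a nucleotide kinase of mitochondria (chr19:28995053-29048080), stood at 61.1, 32.6 and 20.9 CPM in normal gland and 86.4, 238 and 603 CPM in adenoma (log2 change 2.82, SE 0.70). Lalba, alpha-lactalbumin, the regulatory subunit of lactose synthase (chr15:98480400-98482934), was at 807, 597 and 864 CPM in normal gland and 667, 3943 and 8961 CPM in adenoma, a log2 change of 2.39 (SE 0.60). Here the groups overlapped, because adenoma 48 and 50 lay at 674 and 667 CPM while the other 6 regions were at 2817 CPM or more.

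On the lower side Jchain, which joins the units of secreted IgA and IgM and is made by plasma cells (chr5:88519809-88527897), stood at 893, 223 and 21.5 CPM in normal gland and 0, 0 and 1.90 CPM in adenoma. Its normal values spread widely, and 78.5% of their sum came from normal 18. Satl1 (chrX:112384305-112406779) was at 22.5, 88.5 and 13.1 CPM in normal gland, and the 8 adenoma regions together held 1 count. Wwp2, a ubiquitin ligase (chr8:107436334-107559290), stood at 276, 175 and 289 CPM against 2.65, 24.3 and 55.9 CPM, a log2 change of -3.16 (SE 0.68). Mmp14, the membrane-anchored protease that cleaves collagen and activates other matrix proteases (chr14:54431598-54442456), was at 159.8, 51.1 and 237 CPM against 0.285, 8.86 and 29.1 CPM, a log2 change of -3.63 (SE 0.80). For these 4 genes no adenoma region reached the lowest normal library, as for 2.08% of all genes. Wwp2 and Mmp14 held counts in every library of both groups, so for them the distance does not rest on zeros.

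**Figure D1:**
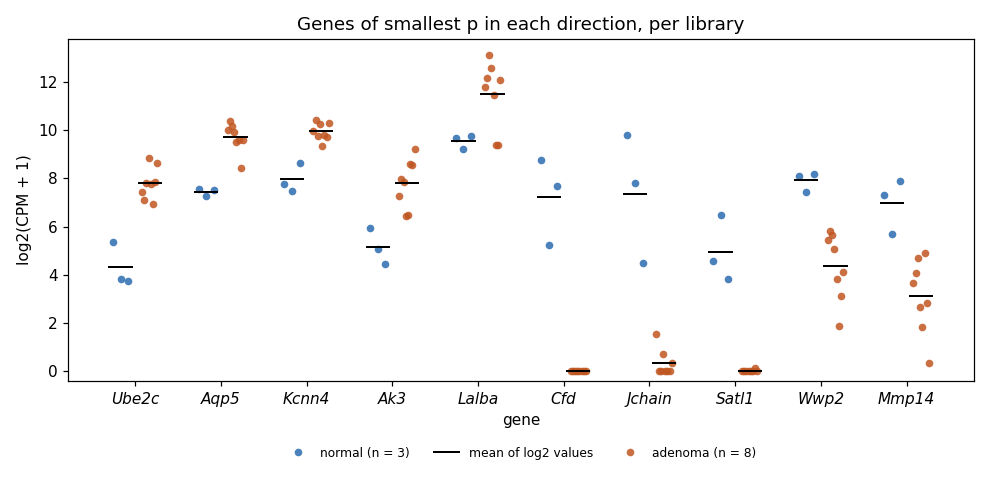
Log2(CPM + 1) of the 5 genes of smallest p on each side among genes with a symbol and above the level filter. Each library is 1 point, with a line at the mean of each group (3 normal, 8 adenoma). Cfd has no count in any of the 8 adenoma regions, and Lalba is the gene of the 10 whose groups overlap.

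The luminal epithelial genes were on the higher side as a group. All 20 tested members of the list of luminal keratins and junction genes had a fitted change above 0, 7 of them at an unadjusted p under 0.05 (3.84% of all genes), with a median log2 change of 0.96 against 0.07 over all genes. With DESeq2 size factors 15 of the 20 were above 0 and the median was 0.58. Their summed level was 1798, 2321 and 2462 CPM in normal gland in ascending order and 2444 to 6922 with a median of 4400.5 CPM in adenoma. Adenoma 47 was lowest and lay under the highest normal library.

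Cd24a, a surface glycoprotein used to sort mammary epithelium, stood at 165, 164 and 95.4 CPM in normal gland and 277, 485 and 862 CPM in adenoma, a log2 change of 1.82 (SE 0.46). F11r, the tight junction adhesion molecule JAM-A, was at 43.9, 17.8 and 37.3 against 64.8, 108 and 238 CPM (log2 change 1.89, SE 0.74). Cldn3, a claudin of the tight junction, was at 232, 163 and 239 against 253, 465 and 559 CPM (log2 change 1.04, SE 0.45). In these 3 genes, in Epcam and in Elf5, a transcription factor of alveolar luminal cells named here after its values were seen, the groups did not overlap, as in 1.02% of all genes on the higher side. The log2 change was 1.43 (SE 0.40) for Krt8 and 0.78 (SE 0.41) for Epcam. Krt18, the partner of keratin 8, stood at 285, 169 and 439 CPM against 263, 571 and 816 CPM, and Cdh1, E-cadherin of adherens junctions, at 107, 172 and 130.1 against 97.8, 166 and 372 CPM. Both overlapped, and the fitted change of Cdh1, 0.44 (SE 0.49), was -0.053 with DESeq2 size factors.

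The milk genes did not move as 1 block. Of the 16 tested members 12 were fitted higher and 4 lower (median log2 change 1.27), 4 and 1 of them at an unadjusted p under 0.05, against 3.84% and 9.22% of all genes. Csn3, kappa casein, was at 5941, 2358 and 959 CPM in normal gland and 3607, 6609.8 and 13816 CPM in adenoma, a log2 change of 1.41 (SE 0.46). Folr1, a folate receptor, was at 54.6, 25.3 and 70.4 against 40.4, 137 and 183 CPM (log2 change 1.37, SE 0.60). Wap, whey acidic protein, stood at 83.3, 10.2 and 35.7 against 22.8, 58.4 and 125 CPM, and Csn2, beta casein, was near 0 in both groups, with 1.13 CPM in the highest library. The member on the other side was Mfge8, the milk fat globule protein that binds cell debris for uptake. Mfge8 stood at 2500.3, 1616 and 2280.1 CPM in normal gland and 19.1, 152 and 1154 CPM in adenoma, a log2 change of -2.26 (SE 0.79). The groups did not overlap, and the adenoma regions themselves spread from 19.1 CPM in adenoma 51 to 1154 CPM in adenoma 50.

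Basal genes did not stand out from all genes by their count at an unadjusted p under 0.05. In the basal and myoepithelial list 11 of 15 were fitted lower, 1 of them at that p, where 9.22% of all genes were, with a median of -1.41. That gene was Krt17, a keratin of basal cells, at 34.9, 21.3 and 21.5 CPM in normal gland and 0, 1.14 and 5.53 CPM in adenoma without overlap (log2 change -3.66, SE 1.69). Krt14, the basal keratin, was at 51.4, 28.8 and 117 against 0, 10.04 and 99.1 CPM. Adenoma 50 was highest at 99.1 CPM, and the groups overlapped. Krt5, its partner, and Acta2, smooth muscle actin, had fitted changes of 0.21 (SE 2.04) and 0.68 (SE 1.62) that rest on adenoma 36 (87.9 and 163 CPM). Without adenoma 36 they were -1.41 and -1.43, and Krt5 was also -0.29 with DESeq2 size factors.

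Among hormone receptors Esr1, the oestrogen receptor, stood at 32.7, 38.5 and 15.6 CPM in normal gland and 0, 15.9 and 296 CPM in adenoma, where the groups overlapped. Prlr, the prolactin receptor, was at 36.9, 169 and 77.97 against 105, 173 and 483 CPM. Pgr, the progesterone receptor, was at 0, 56.8 and 0.821 CPM in normal gland, where 1 library carried nearly all of it, and 5 of 8 adenoma regions were at 0 with 1.47 CPM in the highest. Cited1, a transcriptional co-regulator of hormone-sensing cells, was at 5.35, 0 and 17.03 against 0, 0 and 0.453 CPM. Over the 13 tested hormone-sensing genes 8 were fitted higher and 5 lower. Their median was 0.57, and it was -0.57 without adenoma 36 and -0.12 without adenoma 50. At an unadjusted p under 0.05 none was higher and 3 were lower, against 3.84% and 9.22% of all genes.

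**Figure D2:**
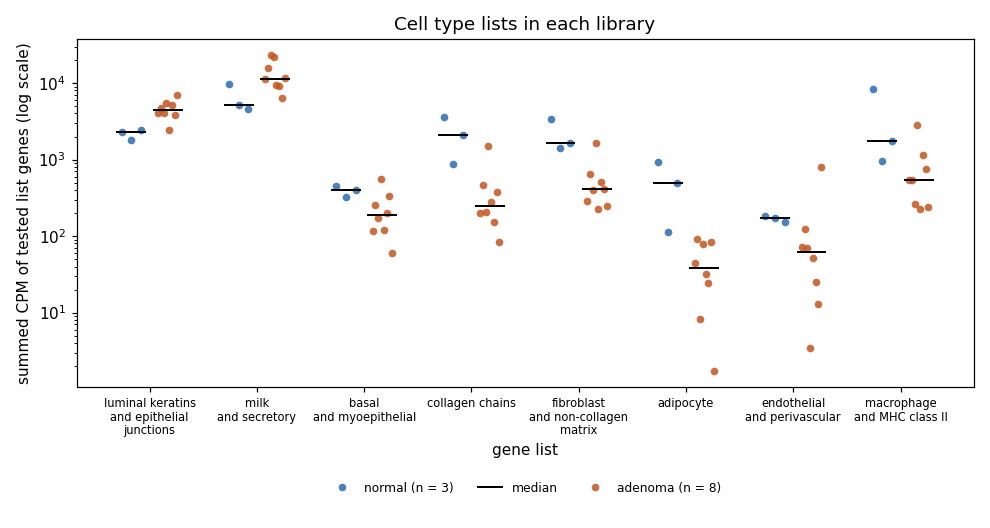
Summed CPM of the tested genes of 8 cell type lists on a log scale, 1 point per library with a line at the group median (3 normal, 8 adenoma). The adipocyte sums do not overlap with Cfd among the genes, but without Cfd normal 28 (75.3 CPM) lies under 3 adenoma regions, and the luminal sums overlap in adenoma 47 alone.

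Genes of mitosis stood higher in adenoma. Of 28 tested genes of the G2 and M phases, 22 were fitted higher with TMM, and 22 also with DESeq2 size factors and with library totals. With TMM 10 of them had an unadjusted p under 0.05, against 3.84% of all genes. None was lower at that p, and the median log2 change was 1.48 (1.06 with DESeq2 size factors). The summed level was 467, 595 and 796 CPM in normal gland in ascending order and 824 to 2033 with a median of 1763 CPM in adenoma, without overlap. Without Ube2c (chosen after seeing the data) adenoma 51 lay inside the normal sums, at 428 CPM against 426, 583 and 783 CPM, while the other 7 regions stayed above them, and 21 of 27 genes were fitted higher with a median of 1.34. The groups did not overlap for 1.02% of all genes on the higher side and for 3 of the 28 members. These were Ube2c, Nusap1 and Cks2, Cks2 being named after its values were seen. None passed the adjusted threshold in the edgeR fit with TMM over all 32 libraries, and DESeq2's Wald test gave adjusted p-values of 0.00821 for Tpx2 and 0.0356 for Cenpa beside its call of Ube2c. Over all 22 alternatives the adjusted p reached 0.517 for Tpx2 and 0.594 for Cenpa.

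Tpx2, which nucleates spindle microtubules and activates Aurora A, was at 4.74, 0.538 and 0.616 CPM in normal gland and 2.58, 23.6 and 138 CPM in adenoma, a log2 change of 4.30 (SE 1.47). Cenpa, the histone variant that marks centromeres, was at 9.75, 0 and 3.08 against 3.43, 39.7 and 217 CPM (log2 change 3.80, SE 1.34). Nusap1, a spindle microtubule binder, was at 6.04, 7.53 and 5.54 against 20.6, 40.5 and 139 CPM (log2 change 2.98, SE 1.17). Tpx2 overlapped through adenoma 25, and Cenpa through adenoma 36 and 51. Birc5, survivin of the chromosomal passenger complex, was at 18.8, 18.8 and 18.3 against 1.998, 50.4 and 128 CPM (log2 change 1.73, SE 0.84), and 7 of 8 adenoma regions lay above all normal libraries, with adenoma 51 below them at 2.0 CPM. Mki67, the Ki-67 antigen of cycling cells, was at 22.8, 20.98 and 140.1 against 22.8, 146 and 278 CPM (log2 change 1.34, SE 0.67). Top2a, the topoisomerase that untangles chromosomes, was at 38.9, 99.8 and 33.7 against 8.56, 115 and 233 CPM (log2 change 0.98, SE 0.66). Normal 30 alone was high for Mki67, and normal 28 for Top2a.

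Promoters of this list are shown because its members stood higher together and because many mitotic genes share CCAAT boxes and a CHR element (TTTGAA). The windows hold 250 bases before and 50 after the start in RefSeq GRCm38.p6, with motif matches on either strand in capitals, and the matches are a description, not sites. Ube2c (chr2:164769679-164769978, plus strand) has 6 CCAAT matches, 2 of which overlap each other, and 1 TTTGAA match that begins 29 bases before the start. Cenpa (chr5:30666636-30666935, plus strand) has 2 CCAAT matches before the start and 1 TTTGAA match after it. Nusap1 and Birc5, mitosis genes described above, have neither motif in their windows, and nor has Cfd (chr10:79890603-79890902, plus strand), shown as the gene that was called.
Ube2c: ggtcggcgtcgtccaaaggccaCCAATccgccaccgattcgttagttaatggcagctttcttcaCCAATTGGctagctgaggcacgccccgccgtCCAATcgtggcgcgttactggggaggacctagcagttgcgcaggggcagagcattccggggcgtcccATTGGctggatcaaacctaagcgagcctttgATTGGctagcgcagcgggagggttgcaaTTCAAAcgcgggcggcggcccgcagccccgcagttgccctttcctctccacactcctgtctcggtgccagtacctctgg
Cenpa: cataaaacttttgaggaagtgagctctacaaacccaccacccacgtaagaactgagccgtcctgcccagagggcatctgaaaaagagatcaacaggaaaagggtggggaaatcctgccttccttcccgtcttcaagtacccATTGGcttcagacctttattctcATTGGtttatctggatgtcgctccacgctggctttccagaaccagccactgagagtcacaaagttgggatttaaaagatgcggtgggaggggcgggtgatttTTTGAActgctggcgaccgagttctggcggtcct
Cfd: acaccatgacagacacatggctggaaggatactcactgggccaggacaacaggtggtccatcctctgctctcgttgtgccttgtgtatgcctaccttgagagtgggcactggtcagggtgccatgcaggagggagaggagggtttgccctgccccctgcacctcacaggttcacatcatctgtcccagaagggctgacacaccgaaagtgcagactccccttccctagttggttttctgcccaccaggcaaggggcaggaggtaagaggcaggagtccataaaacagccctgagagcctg
Of 25 promoters matched for 24 of the 28 list genes, 21 (84%) held CCAAT and 17 (68%) held TTTGAA. Over the 32851 promoters counted, which leave out 1 chromosome and any incomplete window, the shares were 37.41% and 17.89%.

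**Figure D3:**
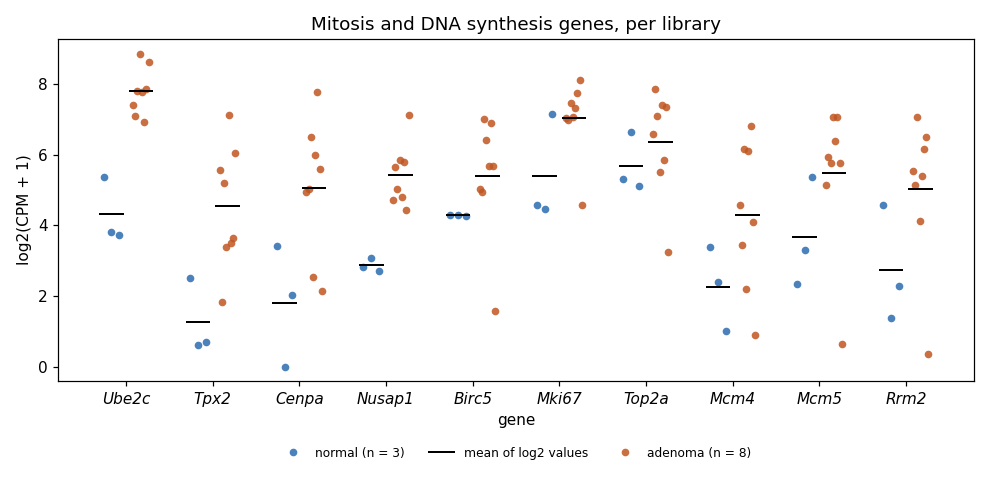
Log2(CPM + 1) of 7 mitosis genes and 3 DNA synthesis genes, 1 point per library with a line at the mean of each group (3 normal, 8 adenoma). Ube2c and Nusap1 separate the groups, while adenoma 51 is the lowest adenoma region for Birc5, Mki67, Top2a, Mcm4, Mcm5 and Rrm2, the highest for Nusap1 and the next to highest for Ube2c and Tpx2.

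For DNA synthesis 21 of 25 genes were fitted higher (17 with DESeq2 size factors), with a median of 0.97, against 51.6% of all genes fitted higher. At an unadjusted p under 0.05 there was 1 of 25, a share near the 3.84% of all genes. This was Mcm4, a subunit of the replicative helicase, at 9.49, 4.30 and 1.03 CPM in normal gland and 0.856, 19.5 and 111 CPM in adenoma (log2 change 2.93, SE 1.45). Rrm2, the small subunit of ribonucleotide reductase, was at 22.8, 1.61 and 3.90 against 0.285, 43.2 and 133 CPM (log2 change 2.50, SE 1.296). Mcm5, another helicase subunit, was at 4.05, 8.88 and 40.6 against 0.571, 56.8 and 135 CPM (log2 change 1.95, SE 1.03). Adenoma 51 gave the lowest value of all 3 genes, and the groups overlapped in each.

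Upstream of the cycle Ccnd1, cyclin D1, which drives entry into S phase, stood at 148, 41.2 and 143 CPM in normal gland and 229, 440.4 and 511 CPM in adenoma (log2 change 1.84, SE 0.64), without overlap. Src, a kinase bound by middle T, was at 68.2, 64.3 and 58.9 against 53.9, 95.9 and 721 CPM (log2 change 1.58, SE 0.78), and adenoma 51 was highest. Grb2, an adaptor from receptors to Ras, was at 94.2, 68.1 and 31.8 against 3.43, 18.8 and 49.3 CPM (log2 change -1.55, SE 0.70). The receptor kinases Erbb2 and Erbb3 stood at 63.8, 44.4 and 83.7 and 18.1, 6.19 and 5.13 CPM in normal gland. In adenoma Erbb2 was at 0.953, 45.1 and 82.2 CPM and Erbb3 at 0.212, 2.19 and 6.10 CPM, with overlap for both. The growth signalling list as a whole had 14 of 22 genes fitted higher with a median of 0.39, which was -0.046 with DESeq2 size factors.

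Cell cycle inhibitors were not on the lower side as a group, with 10 of 14 fitted higher (median 0.50). None was at an unadjusted p under 0.05, where 3.84% of all genes were higher and 9.22% lower. Cdkn1b, the inhibitor p27 of cyclin-dependent kinases, stood at 7.59, 12.9 and 12.7 CPM in normal gland and 13.98, 23.8 and 73.99 CPM in adenoma (log2 change 1.72, SE 0.96), without overlap. Rb1, the retinoblastoma protein that holds back E2F factors, was at 180.5, 44.9 and 72.2 against 4.06, 18.1 and 97.1 CPM (log2 change -1.66, SE 0.82). For Rb1 6 of 8 adenoma regions, from 4.06 to 20.7 CPM, lay below every normal library, and adenoma 36 and 25 reached 67.3 and 97.1 CPM.

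Genes of the extracellular matrix and its fibroblasts stood lower in adenoma. Of 14 collagen chains 13 were fitted lower, 7 of them at an unadjusted p under 0.05 against 9.22% of all genes, with a median log2 change of -2.53. The fibroblast and non-collagen matrix list had 18 of 20 lower, 6 at that p, with a median of -2.27. Genes of both lists are made largely by fibroblasts. Adenoma 36 reached 1506 CPM for summed collagens and 1649 CPM for the fibroblast list against medians of 243 and 407. Of the defining fibroblast markers Col1a1 and Col3a1 had counts in all 8 adenoma regions, and Dcn was at 0 in 3 of them. In DESeq2's Wald test Col1a1, Col3a1 and Postn had adjusted p-values of 0.00744, 0.00610 and 0.00418, and in limma voom 0.00122, 0.000206 and 0.00133. Postn also passed with detected genes as a covariate (adjusted p = 0.0484, edgeR), and over all 22 alternatives the adjusted p of the 3 genes reached 0.29, 0.251 and 0.145.

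Col3a1, the chain of type III collagen, was at 705, 110.03 and 369 CPM in normal gland and 6.79, 20.3 and 149 CPM in adenoma, a log2 change of -3.23 (SE 0.85). For Col1a1 the log2 change was -3.54 (SE 0.96). Both overlapped through adenoma 36. Col5a1 and Col5a2, chains of the type V collagen that starts fibrils, were at 31.3, 15.1 and 65.05 and 141, 20.2 and 56.4 CPM in normal gland. Their adenoma values were 0, 0.938 and 5.75 CPM and 1.44, 7.78 and 23.7 CPM, with overlap for Col5a2 alone.

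Postn, periostin, a matrix protein that binds integrins, stood at 618, 179 and 250.3 CPM in normal gland and 2.85, 12.9 and 55.6 CPM in adenoma (log2 change -3.94, SE 0.99). Sparc, a collagen-binding glycoprotein, was at 947, 425 and 406 against 12.6, 69.5 and 221 CPM (log2 change -2.71, SE 0.71). Bgn, the proteoglycan biglycan, was at 476, 219 and 283 against 0, 7.03 and 145 CPM (log2 change -3.44, SE 1.07). All 8 adenoma regions lay below all 3 normal libraries for these 3 genes, as for 2.08% of all genes. Fbln1, fibulin 1, had 15.4, 17.2 and 2.67 CPM in normal gland and no count in adenoma. Taken from the normal mean, that is at least 327-fold lower, with 3 counts over the 8 regions as the floor. Fn1, fibronectin, was at 154, 21.8 and 39.8 against 1.11, 5.03 and 58.04 CPM (log2 change -2.67, SE 1.04), and adenoma 50 was the high region.

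Mesenchymal genes gave the same side. In the list of regulators of the epithelial-mesenchymal transition 13 of 14 were fitted lower, 4 at an unadjusted p under 0.05 against 9.22% of all genes (median -2.32). Vim, vimentin, the intermediate filament of mesenchymal cells, was at 124, 115 and 55.8 CPM in normal gland and 0, 10.8 and 31.01 CPM in adenoma (log2 change -2.86, SE 0.98), without overlap. Zeb2, a repressor of E-cadherin, was at 30.4, 101.4 and 4.10 against 0.285, 2.96 and 29.02 CPM (log2 change -2.73, SE 1.32), with overlap.

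Matrix proteases and their inhibitors had 14 of 16 fitted lower, 4 at an unadjusted p under 0.05 against 9.22% of all genes (median -2.62). Beside Mmp14, Mmp2, the gelatinase that Mmp14 activates, stood at 217, 60.5 and 229 CPM in normal gland and 0, 9.22 and 67.99 CPM in adenoma (log2 change -3.18, SE 1.31). Timp3, a matrix-bound inhibitor of these proteases, was at 81.00, 145 and 66.5 against 0, 15.1 and 37.96 CPM (log2 change -2.52, SE 1.01), without overlap. The protease and its inhibitor thus stood on the same side. The part of stroma cut along with normal glands in these lists was not tested.

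Among leucocyte genes those of macrophages stood lower, while fitted changes and summed levels of lymphoid genes differed in side. At an unadjusted p under 0.05, 3.84% of all genes were higher and 9.22% lower. Of 14 T, NK, B and plasma cell genes none and 3 were. Of the 14, 8 were fitted higher and 6 lower. Their median was 0.49, and -0.80 without adenoma 36. Their summed level was 93.2, 332 and 1020.3 CPM in normal gland in ascending order and 10.1 to 727 with a median of 38.02 CPM in adenoma, where adenoma 36 was highest. All 18 macrophage and MHC class II genes were fitted lower, 6 at an unadjusted p under 0.05 against 9.22% of all genes. The median of these 18 genes was -1.77, and it ran from -2.71 to -0.63 with 1 library left out. Summed, they gave 961, 1767 and 8418 CPM in normal gland in ascending order and 224 to 2832 with a median of 541 CPM in adenoma. Lyz2, lysozyme of myeloid cells, was at 1740.3, 39.3 and 60.9 CPM in normal gland and 2.12, 8.91 and 164 CPM in adenoma (log2 change -4.33, SE 1.31). Apoe, a lipid carrier that macrophages and fat cells make, was at 3103, 207 and 584 against 19.7, 90.4 and 501 CPM (log2 change -2.73, SE 0.87). Normal 18 was far above the other normal libraries for both.

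C1qa, a chain of complement C1q, was more even, at 179, 21.3 and 140.1 CPM in normal gland and 0.285, 11.2 and 57.8 CPM in adenoma (log2 change -2.62, SE 0.94). Cd74, the invariant chain of MHC class II, was at 474, 231 and 290.1 against 5.53, 36.6 and 369 CPM (log2 change -1.89, SE 0.80). Adenoma 36 was the highest region for Cd74, and its overlap with normal gland rests on it. S100a8, a calcium-binding protein of neutrophils, was at 389, 145 and 74.7 against 0, 4.98 and 77.9 CPM (log2 change -3.74, SE 1.17). The 11 tested neutrophil genes had 6 higher and 5 lower, with a median of 1.54 (0.90 where a member with no count on one side is set to its floor) that became -1.95 without adenoma 47 and -0.51 without adenoma 34. Their summed CPM was 104, 149 and 430.3 in normal gland in ascending order and 0.847 to 106 with a median of 22.99 in adenoma, on the other side from that median.

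Adenoma 36 stood apart for some immune genes and not for others. Its neutrophil sum (0.847 CPM) and its Lyz2 (2.12 CPM) were the lowest of the adenoma regions. Its macrophage and MHC class II sum (2832 CPM) was the highest of them. Ptprc, CD45 of all leucocytes, was at 78.7, 48.4 and 61.4 CPM in normal gland and 0.285, 13.2 and 605 CPM in adenoma, where adenoma 36 gave the highest value and adenoma 50 the next, 194 CPM. The fitted change of 0.80 (SE 1.33) was -0.80 without adenoma 36. H2-K1, an MHC class I heavy chain, was at 632, 758 and 836 against 135, 341 and 6731 CPM. Its maximum again came from adenoma 36, and its fitted change of 0.67 (SE 0.92) was -1.05 without that region. The MHC class I list had 9 of 12 fitted higher with all regions (median 0.53, and -0.052 with DESeq2 size factors), and 1 of 12 without adenoma 36.

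The beta globin gene Hbb-bs, a marker of blood, was at 0.0863, 1.88 and 78.6 CPM in normal gland and 0, 11.1 and 1065 CPM in adenoma. The red cell list had a median of 2.63, which was -0.63 without adenoma 36. At an unadjusted p under 0.05, where 3.84% of all genes were higher and 9.22% lower, there were no interferon response genes. Of these genes 9 were fitted higher and 13 lower. Their summed level was 5635 CPM in adenoma 36, 87.1 to 821 CPM in the other 7 adenoma regions and 696 to 980 CPM in normal gland. The median of -0.27 was -1.89 without adenoma 36 and 0.29 without normal 28.

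Vessel genes were mostly lower without passing the threshold, with 13 of 14 fitted lower and a median of -1.38. Pecam1, an adhesion molecule of endothelium, was at 11.3, 2.42 and 3.69 CPM in normal gland and 0, 0.508 and 20.3 CPM in adenoma, with 4 of 8 regions at 0. Egfl7, a factor that endothelium secretes, was at 38.6, 1.35 and 12.7 against 0, 1.59 and 5.53 CPM (log2 change -3.16, SE 1.53), and Cspg4, the pericyte proteoglycan NG2, at 15.6, 0.807 and 13.7 against 0, 0 and 1.01 CPM. The summed level in adenoma 51, 804 CPM, was above all normal libraries. Rgs5, a pericyte gene named here after its value was seen, reached 789 CPM. In the muscle and nerve list Sox10, a neural crest factor that mammary progenitors also make, was at 298, 259 and 159.8 against 241, 387 and 1131 CPM (log2 change 1.06, SE 0.48).

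Metabolic and protein synthesis genes were mostly fitted higher by small amounts, and how many depends on the scaling. For oxidative phosphorylation 21 of 22 nuclear genes were fitted higher, 5 at an unadjusted p under 0.05 against 3.84% of all genes (median 0.82, and 18 of 22 with a median of 0.43 by DESeq2 size factors). Atp5b and Atp5a1, the beta and alpha subunits of ATP synthase, were at 499, 305 and 535 and 302, 259 and 355 CPM in normal gland. In adenoma Atp5b was at 539, 869 and 1728 CPM (log2 change 1.16, SE 0.41) and Atp5a1 at 369, 596 and 1122 CPM (log2 change 1.07, SE 0.44). No adenoma region lay under the highest normal library for either, as for 1.02% of all genes.

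Ribosomal protein genes had 30 of 30 fitted higher with TMM (median 0.53) and 25 of 30 with DESeq2 size factors (median 0.15). Rps24, a protein of the small subunit, had a log2 change of 0.88 (SE 0.32). The sources used here do not say how multi-mapping reads were counted, so ribosomal, globin and MHC class I values, which have close copies, are uncertain.

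In glycolysis 12 of 16 were fitted higher (10 with DESeq2 size factors), 3 at an unadjusted p under 0.05 against 3.84% of all genes. Ldha, lactate dehydrogenase A, stood at 599.7, 423 and 598 CPM in normal gland and 851, 1171 and 1331 CPM in adenoma (log2 change 1.07, SE 0.40), and Hk1, hexokinase 1, at 57.8, 58.6 and 57.5 against 68.4, 111 and 351 CPM (log2 change 1.46, SE 0.64). Neither overlapped. Aldoa, aldolase A, was at 589.7, 193 and 359 against 503, 726 and 1143 CPM, with overlap.

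Lipid synthesis had 12 of 15 genes fitted higher (median 0.52), and 9 of 15 with DESeq2 size factors (median 0.14). Scd2, a desaturase that makes monounsaturated fatty acids, was at 163, 67.5 and 21.5 CPM in normal gland and 247, 446 and 671 CPM in adenoma (log2 change 2.35, SE 0.63). Thrsp, a nuclear protein that promotes lipogenesis, was at 149.8, 87.7 and 60.3 against 163, 204 and 979 CPM (log2 change 2.05, SE 0.81). Insig1, a brake on sterol synthesis, was at 3.19, 0 and 3.28 against 5.20, 16.3 and 99.04 CPM (log2 change 3.73, SE 1.52). All 3 were without overlap, as were 1.02% of all genes on the higher side. Hmgcs1, an early enzyme of sterol synthesis, was at 17.6, 5.11 and 15.6 against 5.33, 70.4 and 175 CPM, with adenoma 47 as the low region.

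Protein folding and degradation followed the same side. Of genes for unfolded protein and amino acid stress 12 of 16 were fitted higher (median 1.03, and 0.65 with DESeq2 size factors). At an unadjusted p under 0.05, 5 were higher and 1 lower, against 3.84% and 9.22% of all genes. Atf4, the transcription factor of amino acid stress, was at 76.8, 62.9 and 83.9 CPM in normal gland and 115, 147 and 412 CPM in adenoma (log2 change 1.36, SE 0.58), without overlap. The chaperones of the endoplasmic reticulum Hspa5, Hsp90b1 and Calr had log2 changes of 1.23 (SE 0.52), 1.03 (SE 0.43) and 1.03 (SE 0.42), each with overlap. Proteasome genes had 15 of 18 fitted higher (12 with DESeq2 size factors), among them the core subunits Psma7 at 1.44 (SE 0.49) and Psma1 at 1.58 (SE 0.75).

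Secreted defence proteins and oxygen-sensing genes went both ways. Slpi, an inhibitor of leucocyte proteases on mucosal surfaces, stood at 458, 134 and 383 CPM in normal gland and 0, 4.75 and 32.6 CPM in adenoma (log2 change -5.26, SE 1.34), without overlap. Ltf, lactoferrin, was at 622, 288 and 822 against 0.762, 151 and 1369 CPM, and Saa1, an acute phase protein, at 585, 72.6 and 295 against 0, 19.96 and 189 CPM. Pigr, which carries IgA across the epithelium, was at 77.3, 139 and 111 against 9.62, 424 and 1258 CPM (log2 change 2.18, SE 1.02). Tfrc, the transferrin receptor for iron uptake, was at 43.1, 53.5 and 17.6 against 22.5, 149.96 and 179 CPM (log2 change 1.88, SE 0.73). Adenoma 48 and 50 lay below all normal libraries for Pigr. For Tfrc 7 of 8 regions were at 129.9 CPM or more, and adenoma 51 at 22.5 CPM was within the normal values.

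Egln3, an oxygen-dependent prolyl hydroxylase that is itself induced by low oxygen, was at 15.2, 6.46 and 3.49 CPM in normal gland and 47.2, 85.7 and 431 CPM in adenoma (log2 change 3.94, SE 1.13), without overlap and with adenoma 51 highest. P4ha1, a collagen prolyl hydroxylase also induced by low oxygen, was on the other side, at 54.1, 45.2 and 15.8 against 0.339, 8.92 and 12.4 CPM (log2 change -2.44, SE 1.31), again without overlap. The 13 genes of the hypoxia list had a median of 0.13, which was -0.22 with DESeq2 size factors.

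Developmental signalling genes had no common side. Notch3, a Notch receptor, was at 29.2, 15.6 and 22.4 CPM in normal gland and 0.339, 47.5 and 732 CPM in adenoma (log2 change 2.55, SE 1.21), with adenoma 51 at the top. Wnt5b, a non-canonical Wnt ligand, was at 96.2, 105 and 222 against 0, 8.86 and 104 CPM (log2 change -2.56, SE 0.94), and adenoma 48 alone reached the normal range. Of 18 Notch and Wnt genes 8 were fitted higher and 10 lower, with a median of -0.14. The remaining lists are given with their counts at an unadjusted p under 0.05, where 3.84% of all genes were higher and 9.22% lower. Stem and progenitor surface markers had 9 of 16 fitted higher, with 4 higher and 1 lower at that p. The median was 0.19, but -0.18 with DESeq2 size factors and -0.019 without adenoma 50. Secreted leucocyte and iron proteins had 7 of 14 fitted higher, with 2 higher and 2 lower at that p (median 0.066). With DESeq2 size factors that median was -0.31. Immediate early and heat shock genes had 11 of 16 fitted higher and none at that p. Their median was 0.63, 0.20 with DESeq2 size factors, and ran from 0.25 to 0.96 with 1 library left out. Muscle and nerve genes had 5 of 11 fitted higher, with 1 higher and 4 lower at that p. For these the median was -0.65, but 0.29 without normal 18.

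**Figure D4:**
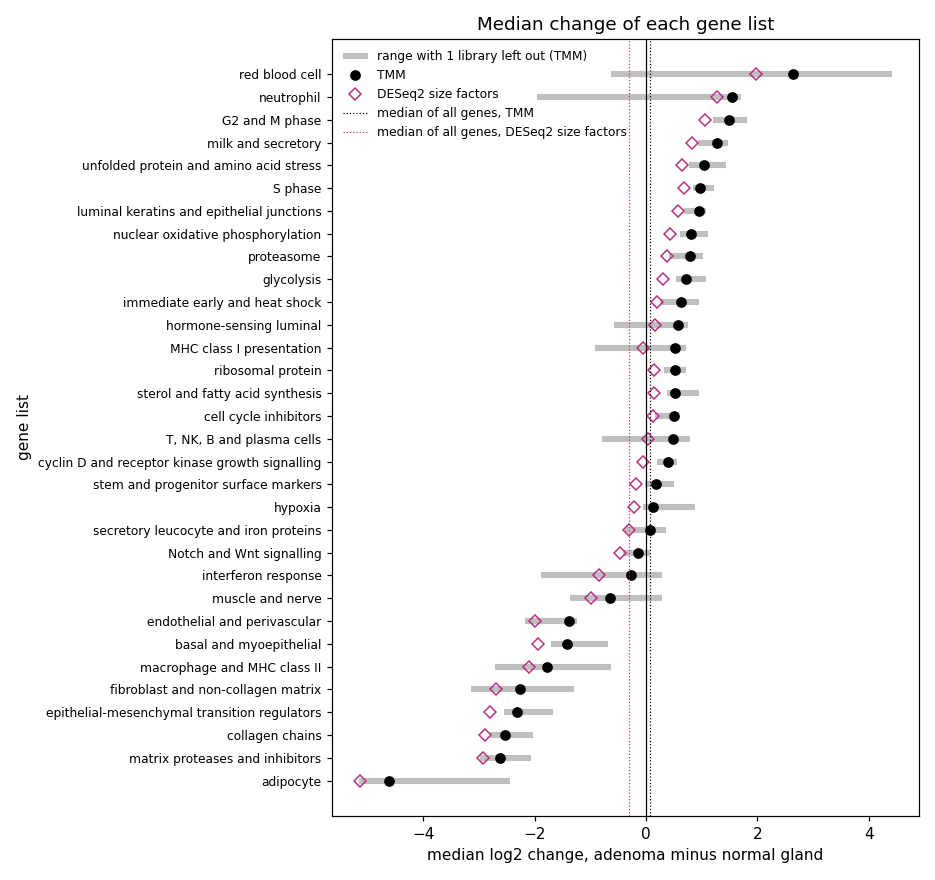
Median log2 change, adenoma minus normal gland, of each of 32 gene lists with TMM (black) and with DESeq2 size factors (diamonds), and in grey the range over 11 fits that each leave out 1 library. Dotted lines mark the median of all genes, 0.07 with TMM and -0.30 with DESeq2 size factors, and the red cell and neutrophil ranges are among those that cross 0.

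Levels in the other stages place the named genes without a test of any difference between those stages. Ube2c averaged 22.0 CPM in normal gland and 244 CPM in adenoma, while hyperplasia stood at 161, carcinoma at 113 and metastasis at 181 CPM. Aqp5 averaged 635 CPM in hyperplasia and 945 in carcinoma, and Lalba 2821 and 2401 CPM, so normal gland had the lowest mean of the 5 stages for all 3 genes. The mean of Mmp14 was 149 CPM in normal gland against 12.0 in adenoma, and it was 43.3 in hyperplasia and 72.5 in carcinoma. Adenoma had the lowest mean for Mmp14 and for Mfge8, which averaged 445 CPM there, 701 in hyperplasia and 780 in carcinoma.

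**Figure D5:**
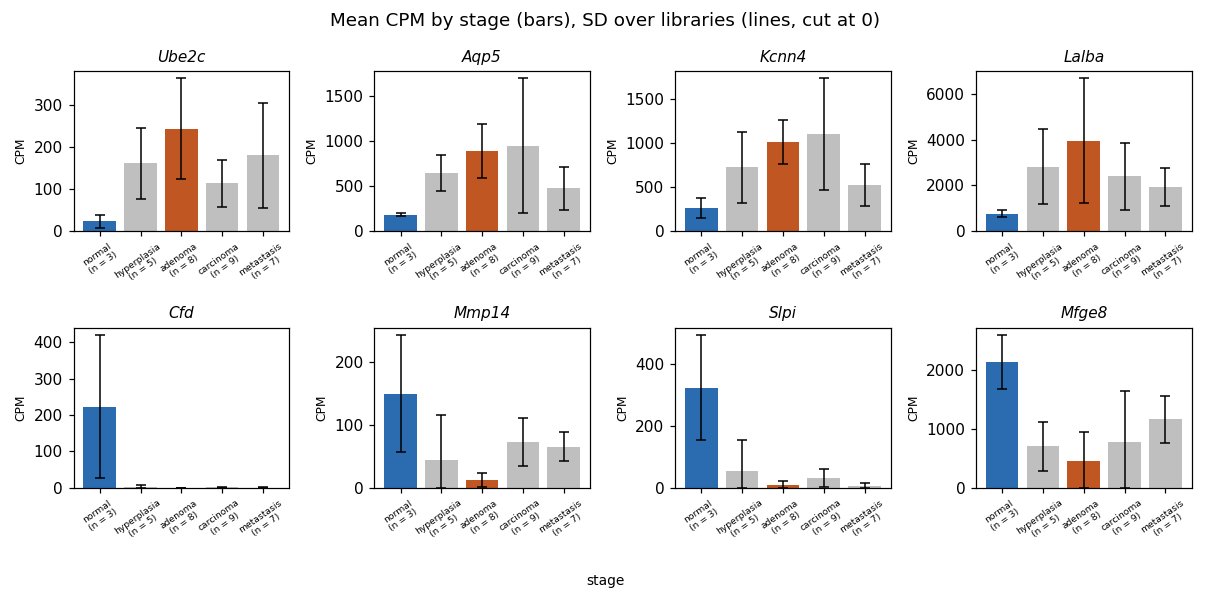
Mean CPM by stage for 8 genes, with lines for the SD over libraries cut at 0 (normal 3, hyperplasia 5, adenoma 8, carcinoma 9, metastasis 7). Normal gland is lowest for Ube2c, Aqp5, Kcnn4 and Lalba and highest for Cfd, Mmp14, Slpi and Mfge8.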

How the data were processed

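Laser-captured regions were fixed 7 µm sections, and cDNA was made from polyadenylated RNA with Smart-seq2 chemistry as in Geo-seq, amplified without molecular identifiers and tagmented with Nextera XT, per the labels' protocols. The deposited values are raw counts per gene ID, whole numbers for 24454 IDs, aligned by the authors with STAR to mm10 per the submitters' processing notes. The sources used here do not name the counter or its annotation, its strand setting or its treatment of multi-mapping reads. Symbols and positions came from RefSeq GRCm38.p6, which held 24374 of the IDs and not the other 80.

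The filter was edgeR's filterByExpr with stage as the group, which kept 19907 genes. Counts were scaled by TMM and fitted over all 32 libraries with 1 term per stage. Adenoma minus normal was tested two-sided with the edgeR quasi-likelihood test (edgeR 4.0.16, limma 3.58.1, DESeq2 1.42.0, R 4.3.3), and a call needed an adjusted p (Benjamini-Hochberg) at or under 0.05. The common dispersion was 2.64. Each SE is the absolute log2 change divided by the square root of F. The script was tested on simulated data. P-values of this fit measure the spread between regions pooled over all 32 libraries, which is not shown to be biological. Reads are not independent molecules, so floors cover counting error only.

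Named genes were those called, genes by smallest p to make 5 a side (mean of 20 CPM and 10 counts in 75% of libraries of the higher group), up to 4 of smallest p in each of 32 lists, and a set of markers; 2 genes that this rule names are not reported here. The members and lists were chosen with earlier results of these data known. Alternatives were other scalings, filters, tests and sample sets, thinning, a detected-gene covariate and leaving out each library. Animals could not be fitted, since no label gives them.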

Additional observations from a re-analysis of the deposited data

Results flagged for a closer look

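Among the 8 adenoma regions 101 measures were tested, 98 of them named genes and the others library measures. In 16 genes 1 region lay far from the others, by the gap of the highest or lowest region over the whole range. The gap was taken on the log2(CPM + 1) scale and lay above Dixon's critical value for 8 values. Chance flags about 1 in 20 groups of normally distributed values. That rate need not hold for genes with most regions at 0. Adenoma 51, the region with the fewest detected genes, held 6 of the 16. It was lowest for the cycle genes Mki67 (22.8 CPM), Birc5 (2.0 CPM), Rrm2 (0.285 CPM) and Mcm5 (0.571 CPM) and for the iron uptake gene Tfrc (22.5 CPM), and highest for the oxygen-sensing gene Egln3 (431 CPM). Adenoma 50 held 5. It was lowest for the water channel Aqp5 (346.0 CPM) and highest for fibronectin, Fn1 (58 CPM), for Pgr (1.47 CPM) and Cited1 (0.453 CPM) of hormone-sensing cells, and for Satl1 (0.113 CPM). Adenoma 47 was lowest for Krt18 (263 CPM) and Folr1 (40.4 CPM). Adenoma 25 was highest for Car3 (7.03 CPM) and Pecam1 (20.3 CPM), and adenoma 24 for Jchain (1.90 CPM). Apart from Fn1, Egln3 and Pecam1, the largest of the high values was 7.03 CPM.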

How the results depend on the processing

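Calls of higher and lower genes were 0 and 1. They were 1 and 5 with DESeq2 size factors, 141 and 223 with DESeq2's Wald test, 6 and 497 with limma voom, 1 and 15 on counts thinned to the lowest total, 0 and 6 with the 11 libraries alone, 0 and 4 with the number of genes detected as a model term, 1 and 1 after dropping the libraries of fewest detected genes, and 0 and 0 with a filter of 10 counts in 8 libraries, which removed Cfd before the test. Leaving out 1 library at a time gave 0 to 0 higher and 0 to 1 lower genes, the 0 coming without normal 18. The median over all genes was 0.07, and -0.30 with DESeq2 size factors, -0.13 with library totals, -0.45 with the Wald test, -0.59 with voom, 0.37 with the covariate and -0.10 on thinned counts. It ran from -0.07 to 0.26 with 1 library left out.

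Fitted changes turned sign in 11 of the 98 named genes, none of them called. Cdh1 was -0.053 with DESeq2 size factors and -0.052 in the Wald test, and Krt5 -0.29 in both. With library totals Krt5 was -0.47 and Acta2 -0.017. With voom Krt5 was -3.08, Acta2 -2.38, Ptprc -1.86, Esr1 -1.33 and H2-K1 -0.62. With the covariate Ptprc was -0.65, H2-K1 -0.10, Erbb2 0.19 and Erbb3 0.64. With 1 library left out at a time Krt5 ran from -1.41 to 0.87, Acta2 from -1.43 to 0.95, Ptprc from -0.80 to 1.01, H2-K1 from -1.05 to 0.85 and Hbb-bs from -1.03 to 7.41, each lowest without adenoma 36. Esr1 ran from -0.44 (without adenoma 50) to 1.22, Pecam1 from -2.56 to 0.16 (without normal 18) and Csn2 from -1.59 to 0.54 (without normal 30). Of 2148 values of named genes under alternatives 2060 kept their sign and side of the threshold, 60 passed it, 3 lost it and 25 turned, and 643 of 704 list medians kept their sign. The causes were not tested. No paired analysis was possible because the adenoma and normal libraries share no replicate number. The depth of 2688611 counts in the smallest library and 3 normal libraries limit what low genes can show.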
